A study of Mus musculus with 12 samples.

Results

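The 8 genes described here carry vitamin A through the liver: Rbp4, Lrat, Bco1, Dhrs3, Rdh16, Aldh1a1, Aldh1a7 and Cyp26a1. They were taken by gene name from a deposited table of 19252 mouse genes, and all 8 were found there. All 8 also passed the floor for testing, which was at least 1 TPM in at least 4 of the 12 libraries. The libraries were made from total liver RNA of C57BL/6 mice in 3 groups of 4. The NAC_HFD mice ate a high fat diet and drank water that held 2 g of N-acetylcysteine per litre, the HFD mice ate that diet with no such addition named, and the NFD mice ate a normal fat diet. N-acetylcysteine supplies cysteine for the synthesis of glutathione, an antioxidant peptide. The labels give 14 weeks of feeding and an age of 8 weeks for each library, without saying at which point that age was taken. They do not state the sex of the mice, the make-up of the diets or whether each library is a separate animal, so the p-values below measure the spread between these 12 samples.

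The liver is the main store of vitamin A. Hepatocytes take up dietary retinol, and hepatic stellate cells hold most of it as retinyl ester in lipid droplets. Retinol is oxidised reversibly to retinal and retinal irreversibly to retinoic acid, which acts through the nuclear receptors RAR and RXR and is cleared by Cyp26 hydroxylases, whose best known member is itself a retinoic acid target gene.

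Sequences upstream of listed starts of 4 of the genes are shown first. They bear on a close gene pair and on a known retinoic acid target, and come from the RefSeq promoter table of build GRCm38.p6. The stretches of Aldh1a1 and Cyp26a1 lie inside the span annotated for the gene. Aldh1a1 lies at chr19:20492583-20643463 and Aldh1a7 beside it at chr19:20692953-20727556, both annotated as protein coding. The 80 bases upstream of the second listed start of Aldh1a1 (chr19:20601888-20601967, plus strand) and those upstream of Aldh1a7 (chr19:20727557-20727636, minus strand) were identical at 77 positions, and capitals mark the 3 that differ.
Aldh1a1: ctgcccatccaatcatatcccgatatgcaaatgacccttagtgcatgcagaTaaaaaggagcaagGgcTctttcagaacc
Aldh1a7: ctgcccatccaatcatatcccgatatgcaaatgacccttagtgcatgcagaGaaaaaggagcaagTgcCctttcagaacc
Over 100 bases upstream 94 positions were identical, while the first listed start of Aldh1a1 shared 20 of 80 positions with Aldh1a7. The windows from 250 bases before to 50 bases after each listed start were then searched on both strands for paired nuclear receptor sites. Each site of a pair was the motif AGGTCA or one of its variants, which were the letters AGTTCA, the letters GGGTCA and the letters GGTTCA. Pairs in the same direction with 1, 2 or 5 bases between them were called DR1, DR2 and DR5. Cyp26a1 held a DR5 (capitals) within chr19:37697770-37697799, plus strand, and Bco1 a DR1 (capitals) within chr8:117095803-117095832, plus strand. Both pairs read on the strand opposite to the gene, so the capitals show the reverse complement of the motif letters.
Cyp26a1: taaagaTGAACTTTGGGTGAACTaatttgt
Bco1: gggaacTGACCTTTGACCTaacacacacac
The other windows of the 8 genes, of 12 in all, held none of the 3 pairs in these letters. Among 32851 windows of the table, 0.0974% held a DR5, 0.222% a DR1 and 0.268% a DR2. A match is a description of letters, not a binding site.

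The values are TPM, the authors' length-normalised relative abundance of transcripts, which divide by transcript length and by the library total, so that levels of different genes can be set side by side but read depth is unknown. Every library listed between 10864 and 11316 genes at 1 TPM or more, and its mean correlation with its own group was 0.978 to 0.989 across genes. The summed level of 10 hepatocyte markers was 42786 to 59624 TPM in NAC_HFD, 38000 to 54006 TPM in HFD and 46740 to 51911 TPM in NFD libraries. In whole tissue, fewer cells of a type and less RNA per cell cannot be told apart.

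Aldh1a1 and Dhrs3 rose in HFD livers against NFD livers, by 0.85 and 0.43 on the log2(TPM + 1) scale, and Dhrs3 also stood higher in NAC_HFD livers than in NFD livers. Aldh1a1 and its neighbour Aldh1a7 were both lower in each NAC_HFD library than in any HFD library, as 8.66% of tested genes were, but neither passed the test after adjustment. Of the 8 genes, 2 passed the test for HFD against NFD, both higher, where 2.78% of all 11376 tested genes passed and 2.19% passed as higher; 3 of the 8 had an unadjusted p under 0.05, against 19.1% of tested genes. None passed for NAC_HFD against HFD by limma, where 0% of tested genes passed; 3 of the 8 had an unadjusted p under 0.05 there, against 16.4% of tested genes. One of the 8, Dhrs3, passed for NAC_HFD against NFD, where 5.28% of tested genes passed and 1.76% passed as higher; it was also the only one of the 8 with an unadjusted p under 0.05, against 22.6% of tested genes. The median difference over the 8 genes was 0.22 for HFD against NFD, -0.02 for NAC_HFD against HFD and 0.03 for NAC_HFD against NFD, beside 0.01, -0.08 and -0.07 over all tested genes. Each pair of these comparisons shares a group of libraries, so their values are given side by side and are not independent.

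**Figure D1:**
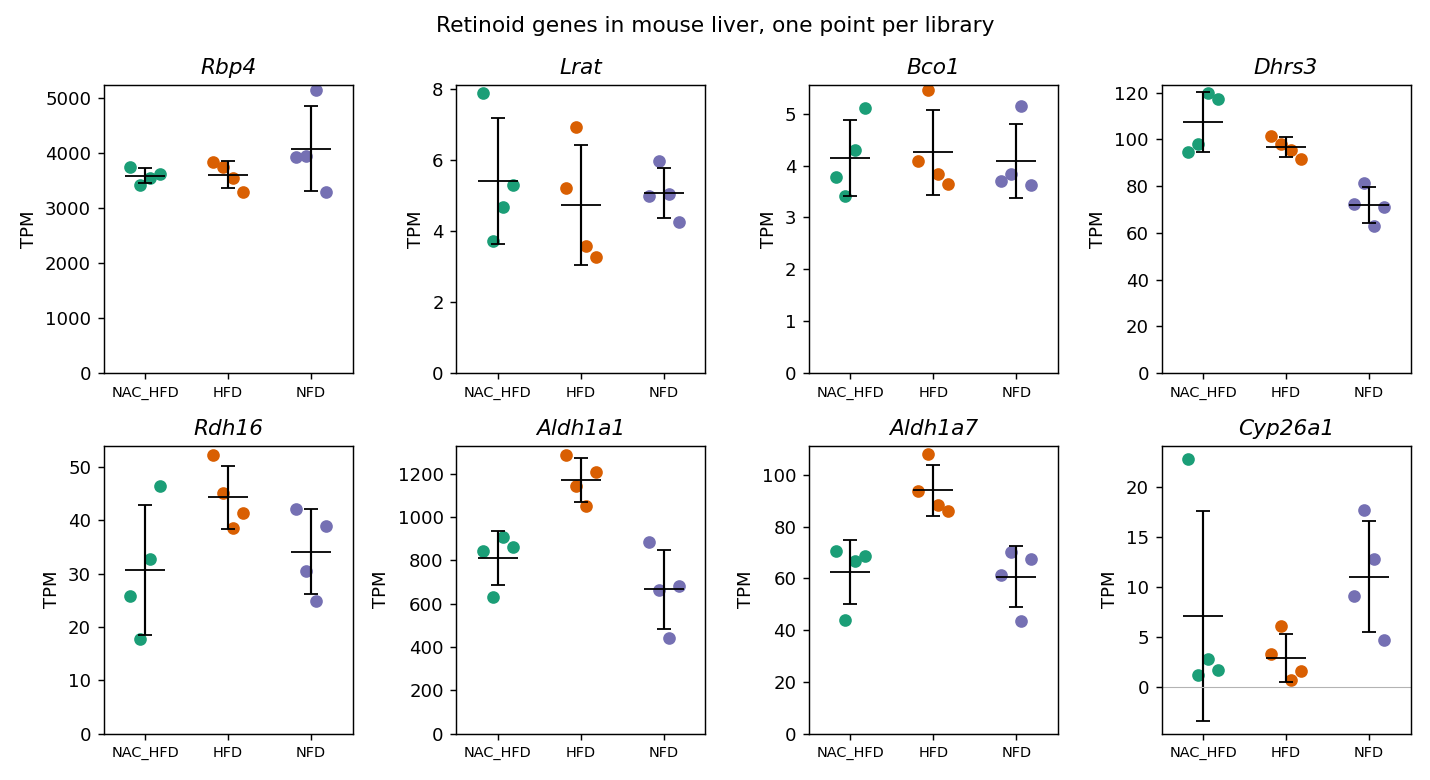
Level of each of the 8 genes by library, in TPM on a separate vertical axis per gene that starts at or below 0; points are libraries, and horizontal marks with bars are the mean and SD of 4 libraries. Aldh1a1 and Aldh1a7 are highest in all 4 HFD libraries, Dhrs3 is lowest in all 4 NFD libraries, and 1 NAC_HFD library stands far above the other 3 for Cyp26a1 at 22.9 TPM.

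**Figure D2:**
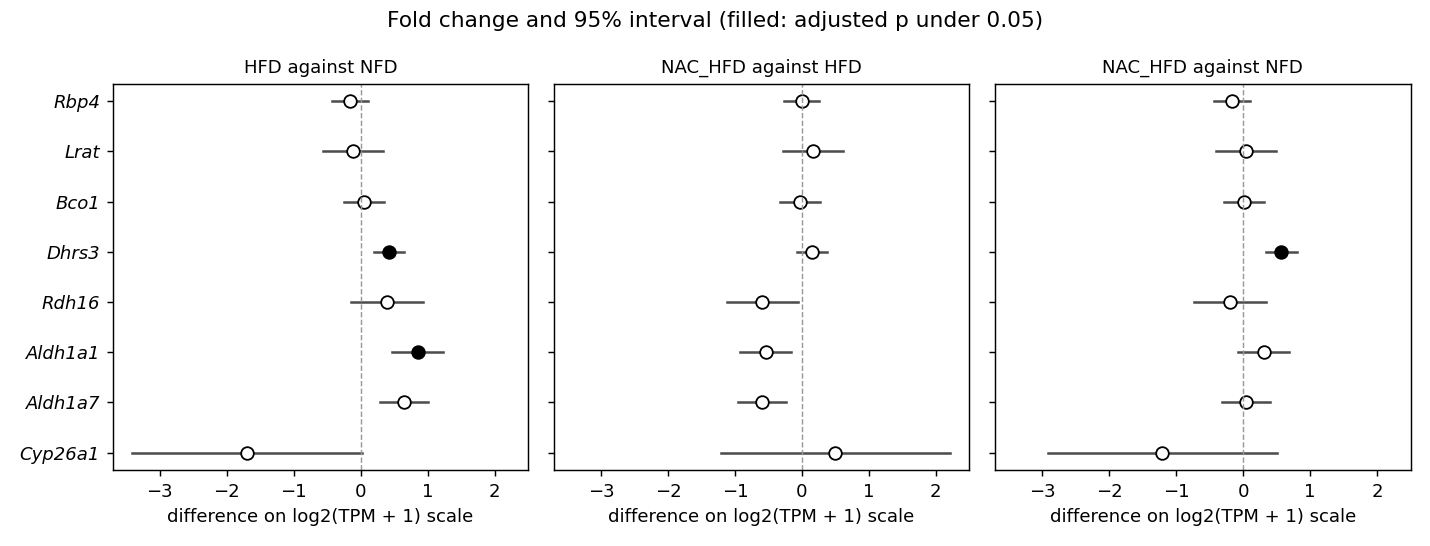
Difference of group means for each gene on the log2(TPM + 1) scale with its 95% interval from limma, for the 3 comparisons; filled points passed an adjusted p of 0.05. The filled points are Aldh1a1 and Dhrs3 for HFD against NFD and Dhrs3 for NAC_HFD against NFD, and the widest intervals belong to Cyp26a1.

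In NFD livers the order by mean TPM was Rbp4, Aldh1a1, Dhrs3, Aldh1a7, Rdh16, Cyp26a1, Lrat and Bco1, with overlapping libraries between Dhrs3 and Aldh1a7, between Cyp26a1 and Lrat and between Lrat and Bco1. In HFD livers Cyp26a1 had the lowest mean of the 8. Rbp4, at chr19:38116620-38125321, encodes the protein that carries retinol out of the liver into plasma. It had 3751, 3423, 3548 and 3616 TPM in NAC_HFD livers, 3841, 3741, 3544 and 3287 TPM in HFD livers, and 3916, 3948, 5142 and 3292 TPM in NFD livers. The groups overlapped throughout, and the highest and second lowest libraries were both of the NFD group. The difference was -0.16 for HFD against NFD (SE 0.12, 95% interval -0.43 to 0.10, adjusted p = 0.505 by limma) and -0.01 for NAC_HFD against HFD (SE 0.12, interval -0.27 to 0.26, adjusted p = 0.987). A single transcript, ENSMUST00000112335, made up 98.3% to 98.9% of the gene's TPM in every library.

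Lrat, at chr3:82892582-82903974, encodes the enzyme that esterifies retinol for storage and in liver is known chiefly from stellate cells. Lrat had 7.86, 3.72, 4.68 and 5.30 TPM in NAC_HFD livers, 5.19, 6.91, 3.56 and 3.25 TPM in HFD livers, and 4.97, 5.96, 5.04 and 4.24 TPM in NFD livers. The highest and lowest libraries were a NAC_HFD and an HFD library, and the NFD values lay between them. Its differences were 0.16 for NAC_HFD against HFD (interval -0.29 to 0.61, adjusted p = 0.733) and -0.12 for HFD against NFD (interval -0.57 to 0.33, adjusted p = 0.801). The stellate cell markers as a list, 18 genes of which 16 were tested, summed to 206.9 to 296.3 TPM in NAC_HFD, 219.7 to 265.1 TPM in HFD and 193.3 to 269.6 TPM in NFD libraries. By limma 0 of the 16 passed in any of the 3 comparisons, with 0, 1 and 3 at an unadjusted p under 0.05 for NAC_HFD against HFD, HFD against NFD and NAC_HFD against NFD. Among all tested genes the shares at that unadjusted p were 16.4%, 19.1% and 22.6%, in the same order.

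Bco1, at chr8:117095851-117133720, encodes the oxygenase that cleaves beta-carotene into retinal. Levels of Bco1 were 3.78, 3.41, 4.30 and 5.10 TPM in NAC_HFD livers, 4.08, 5.45, 3.84 and 3.64 TPM in HFD livers, and 3.71, 3.84, 5.15 and 3.63 TPM in NFD livers. Each group had 1 library above 5 TPM, and the group means of 4.15 ± 0.732, 4.25 ± 0.818 and 4.08 ± 0.717 TPM (SD, n = 4 each, in the same order) differed by less than these spreads. The difference for NAC_HFD against HFD was -0.03 (interval -0.33 to 0.27, adjusted p = 0.943), and that for HFD against NFD was 0.05 (interval -0.25 to 0.34, adjusted p = 0.893). In the authors' deposited table of mRNA transcripts for HFD against NFD, the minor Bco1 transcript ENSMUST00000167370 had p = 0.0346 and an adjusted p of 1. That transcript was listed at 0.61, 0, 0.58 and 0 TPM in the HFD libraries and at 0 in all 4 NFD libraries.

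Dhrs3, at chr4:144892534-144928209, encodes the reductase that returns retinal to retinol and so lowers retinoic acid formation. It had 94.6, 98.2, 119.95 and 117.3 TPM in NAC_HFD livers, 101.5, 98.3, 95.5 and 91.5 TPM in HFD livers, and 72.6, 81.4, 62.8 and 70.9 TPM in NFD livers. Every library of both high fat groups lay above every NFD library, while the NAC_HFD and HFD libraries overlapped. Among all tested genes, 7.78% lay higher in every HFD than in every NFD library, and 3.52% did so for NAC_HFD over NFD. The mean was 107.5 ± 13.0 TPM in NAC_HFD, 96.7 ± 4.22 TPM in HFD and 71.9 ± 7.63 TPM in NFD livers. Dhrs3 rose by 0.57 in NAC_HFD against NFD livers (SE 0.10, interval 0.35 to 0.80, adjusted p = 0.0110 by limma), a ratio of mean TPM of 1.495, and it ranked 87 by p among the 11376 genes.

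The rise of Dhrs3 in HFD against NFD livers was 0.43 (SE 0.10, interval 0.20 to 0.65, adjusted p = 0.0450), a ratio of means of 1.34. That call lay close to the threshold: it was lost when any 1 HFD library was left out, or NFD replicate 1, 3 or 4, with adjusted p up to 0.140 without HFD replicate 1. For NAC_HFD against NFD the call was kept in all 12 fits that left out 1 library, with adjusted p up to 0.0357. Between NAC_HFD and HFD livers the difference was 0.14 (SE 0.10, interval -0.08 to 0.37, adjusted p = 0.513), and under scaling by the median of ratios it was 0.24.

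The 2 most abundant coding transcripts of Dhrs3 showed the pattern of the gene. ENSMUST00000171001, with a median of 45.0% of the gene's TPM, had 40.8, 36.9, 54.9 and 56.0 TPM in NAC_HFD, 47.7, 45.0, 39.4 and 43.2 TPM in HFD, and 33.3, 33.2, 27.8 and 27.6 TPM in NFD livers. ENSMUST00000154208, with a median share of 35.1%, had 34.1, 35.1, 42.5 and 40.8 TPM in NAC_HFD, 34.3, 33.5, 31.8 and 31.8 TPM in HFD, and 24.95, 30.95, 23.3 and 27.2 TPM in NFD livers. For both transcripts all 8 libraries of the high fat groups lay above all 4 NFD libraries. A list of 12 pericentral hepatocyte markers, whose sum was mostly Cyp2e1, came to 10572 to 11679 TPM in NAC_HFD, 8093 to 9621 TPM in HFD and 7344 to 8752 TPM in NFD libraries. For NAC_HFD against NFD 4 of the 12 markers had positive differences, with a median of -0.13. Among all 11376 tested genes 4265 had positive differences, with a median of -0.07. Of the 12, 2 passed, Cyp2e1 and Gulo, which rose by 0.61 and 0.59 (adjusted p = 0.00816 and 0.00666), while Oat and Tbx3 had differences of -0.97 and -0.98 (adjusted p = 0.0620 and 0.122). The list's part in the Dhrs3 results was not tested.

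Rdh16, at chr10:127801090-127815846, encodes a short-chain dehydrogenase of liver that oxidises retinol to retinal. Its levels were 25.9, 17.7, 32.7 and 46.4 TPM in NAC_HFD livers, 52.3, 45.1, 38.6 and 41.3 TPM in HFD livers, and 42.2, 30.5, 24.8 and 38.97 TPM in NFD livers. Of the NAC_HFD libraries, 3 lay below all HFD libraries and replicate 4 lay above 3 of them, and the NFD range overlapped both. The difference for NAC_HFD against HFD was -0.59 (SE 0.25, interval -1.13 to -0.05, unadjusted p = 0.0335, adjusted p = 0.263), and that for HFD against NFD was 0.39 (SE 0.25, interval -0.15 to 0.92, adjusted p = 0.421).

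Aldh1a1 encodes the main cytosolic dehydrogenase of liver that turns retinal into retinoic acid. It had 842, 629, 907 and 862 TPM in NAC_HFD livers, 1287, 1142, 1050 and 1207 TPM in HFD livers, and 885, 663, 440.1 and 680.01 TPM in NFD livers. All 4 HFD libraries lay above all 8 others, and the NAC_HFD and NFD libraries overlapped. Among tested genes, 7.78% lay higher in every HFD than in every NFD library. A share of 8.66% lay lower in every NAC_HFD than in every HFD library. The share that did both was not counted. The rise in HFD against NFD livers was 0.85 (SE 0.18, interval 0.47 to 1.23, adjusted p = 0.0239 by limma), with means of 1171 ± 101 TPM in HFD and 667 ± 182 TPM in NFD livers and a ratio of means of 1.76. Aldh1a1 ranked 146 by p in that comparison. The call was lost without HFD replicate 1, 2 or 4, with adjusted p of 0.0844, 0.0620 and 0.0744, and with no floor on low genes, at 0.0594.

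For NAC_HFD against HFD livers the Aldh1a1 difference was -0.54 (SE 0.18, interval -0.93 to -0.16), a ratio of mean TPM of 0.691. No NAC_HFD library reached the lowest HFD library, as for 8.66% of tested genes. The unadjusted p was 0.00900 and the adjusted p 0.171, so it did not pass. Against NFD livers the NAC_HFD difference was 0.31 (interval -0.08 to 0.69, adjusted p = 0.323).

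Aldh1a7 is a rodent gene close to Aldh1a1 whose mouse protein is known for little activity on retinal. Aldh1a7 had 70.6, 44.1, 66.8 and 68.8 TPM in NAC_HFD livers, 93.9, 108.1, 88.6 and 85.95 TPM in HFD livers, and 61.5, 70.4, 43.7 and 67.4 TPM in NFD livers. Again all 4 HFD libraries lay above all 8 others, beside the same shares of tested genes as given for Aldh1a1. The difference for HFD against NFD was 0.64 (SE 0.17, interval 0.28 to 0.999), and its adjusted p of 0.0560 missed the threshold. It passed in 1 of 10 other settings, a fit on those 2 groups alone, at 0.0423. The highest adjusted p by limma among these settings was 0.112, with no floor. With 1 library left out it passed in 1 of 12 fits, without NAC_HFD replicate 2, at 0.0241. Among those fits the highest adjusted p was 0.144, without HFD replicate 2.

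The difference of Aldh1a7 for NAC_HFD against HFD was -0.60 (SE 0.17, interval -0.96 to -0.24, unadjusted p = 0.00291, adjusted p = 0.115), a ratio of means of 0.665. For NAC_HFD against NFD it was 0.04 (interval -0.32 to 0.40, adjusted p = 0.908). The level of Aldh1a1 over that of Aldh1a7 was 13.1 ± 1.04 in NAC_HFD, 12.5 ± 1.63 in HFD and 10.996 ± 2.30 in NFD livers (SD, n = 4 each), and these means differed by less than the NFD spread. The NFD values were 14.4, 9.42, 10.07 and 10.09 in replicate order, while the lowest values were 11.9 in NAC_HFD and 10.6 in HFD livers. Over the 12 libraries the log2(TPM + 1) values of the 2 genes had a Pearson r of 0.87, and 0.73 after the group means were taken out. The sources used here do not give how the authors divided reads between related genes, and the transcripts of these 2 genes were not compared here.

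**Figure D3:**
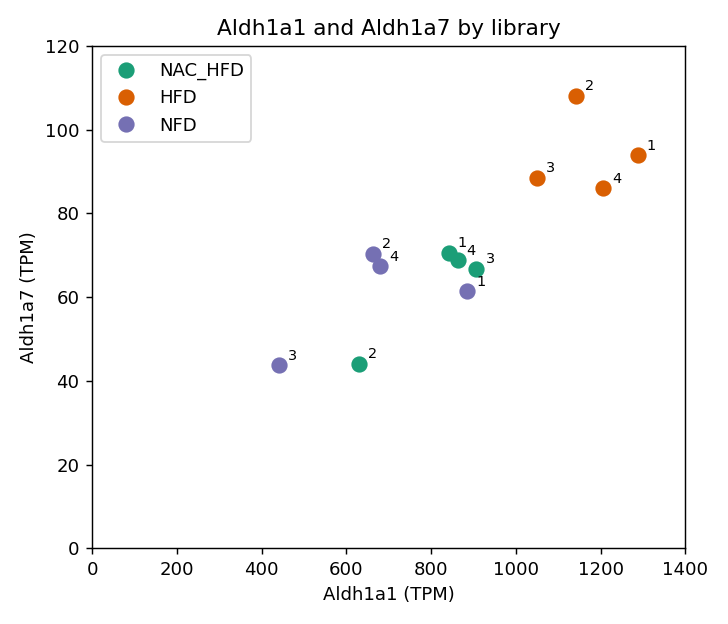
Aldh1a7 against Aldh1a1 in each library, both in TPM on axes from 0, with points coloured by group and numbered by library. The 4 HFD libraries stand apart at the upper right, while NAC_HFD and NFD libraries share the lower range, with NAC_HFD replicate 2 and NFD replicate 3 lowest.

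Some marker lists of other cells had their highest mean sum in HFD livers, though the Kupffer cell sums overlapped between the groups. The adipocyte list, 10 genes of which 9 were in the table and 3 tested, summed to 1256 to 1799 TPM in NAC_HFD, 1892 to 2077 TPM in HFD and 399.7 to 860.7 TPM in NFD libraries. Of the 3 tested, Car3 and Cfd rose in HFD against NFD livers, by 1.56 and 3.03 (adjusted p = 0.00316 and 0.0200). Nearly all of the sum was Car3, which hepatocytes also express, while the defining adipocyte genes Adipoq and Plin1 reached at most 0.15 and 0.27 TPM. The enterocyte list, 7 genes of which 4 were in the table, summed to 101.8 to 114.7 TPM in NAC_HFD, 149.8 to 164.3 TPM in HFD and 94.3 to 127.7 TPM in NFD libraries, with its defining gene Vil1 at most 0.32 TPM. Of its 3 tested genes Fabp2 rose in HFD against NFD livers, by 0.79 (adjusted p = 0.0296 by limma). Lgals4 and Cdhr5, the others tested, had differences of 0.53 and 0.0008 (adjusted p = 0.343 and 0.994). The 10 Kupffer cell markers summed to 74.7 to 147.4 TPM in NAC_HFD, 107.9 to 270.8 TPM in HFD and 80.9 to 153.3 TPM in NFD libraries. For HFD against NFD 0 of the 10 passed by limma, with 4 at an unadjusted p under 0.05, against 19.1% of tested genes. For NAC_HFD against HFD 0 of the 10 passed as well. All 10 had negative differences with a median of -0.72, where 3587 of 11376 tested genes had positive differences and the median was -0.08. An unadjusted p under 0.05 was found for 7 of the 10, against 16.4% of tested genes. The part of these lists in the Aldh1a1 and Aldh1a7 results was not tested.

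Cyp26a1, at chr19:37697738-37701536, encodes the hydroxylase that clears retinoic acid and is the textbook retinoic acid target of liver. It had 22.9, 1.14, 2.77 and 1.70 TPM in NAC_HFD livers, 3.28, 6.08, 0.64 and 1.61 TPM in HFD livers, and 9.05, 17.7, 12.8 and 4.65 TPM in NFD livers. Of the HFD libraries 3 lay below all NFD libraries, and so did 3 of the NAC_HFD libraries, while NAC_HFD replicate 1 was the highest of all 12. The difference for HFD against NFD was -1.70 (SE 0.77, interval -3.42 to 0.01, unadjusted p = 0.0513, adjusted p = 0.264), with means of 2.90 ± 2.38 TPM in HFD and 11.1 ± 5.55 TPM in NFD livers. In size it was larger than that of the other 7 genes, but it did not pass.

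NAC_HFD livers averaged 7.12 ± 10.5 TPM of Cyp26a1, an SD above the mean that comes from replicate 1. The difference for NAC_HFD against HFD was 0.50 (SE 0.77, interval -1.22 to 2.22, adjusted p = 0.789), and without that library it was -0.27. For NAC_HFD against NFD it was -1.20 (SE 0.77, interval -2.92 to 0.51, adjusted p = 0.385), and without NAC_HFD replicate 1 it was -1.98 (SE 0.53, adjusted p = 0.0622). With all 12 libraries the intervals allow differences in either direction for both comparisons.

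The gene's TPM was split between a coding transcript, ENSMUST00000025946, and a noncoding one, ENSMUST00000236500, whose share was 4.73% to 30.9% with a median of 23.6%. The coding transcript alone had 17.8, 0.91, 2.58 and 1.61 TPM in NAC_HFD, 2.27, 4.2, 0.5 and 1.19 TPM in HFD, and 6.50, 13.5, 9.81 and 3.36 TPM in NFD livers. It showed the same high and low libraries as the gene. In the authors' deposited table for HFD against NFD this transcript had a fold of 0.241, a log2 fold change of -2.05, p = 0.0135 and an adjusted p of 0.228.

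Cyp26b1, the other Cyp26 hydroxylase tested, had 26.0, 3.65, 2.22 and 2.27 TPM in NAC_HFD, 10, 11.2, 2.44 and 4.36 TPM in HFD, and 5.85, 14.8, 4.01 and 2.32 TPM in NFD livers. Its highest library was again NAC_HFD replicate 1, and the 3 groups overlapped. The Cyp26b1 difference was -0.22 for NAC_HFD against HFD and 0.11 for HFD against NFD (SE 0.76 each, adjusted p = 0.915 and 0.956). NAC_HFD replicate 1 was also the highest of its group for Lrat and for Rarb, a retinoic acid receptor that is itself a known retinoic acid target, at 1.64 TPM against 0.84, 1.33 and 0.88 TPM in the other NAC_HFD libraries. That library differed in other genes too. Its stellate marker sum of 296.3 TPM was the highest of all 12 libraries. The stellate marker Acta2 stood at 13.8 TPM, against 0.64, 1.43 and 0.79 TPM in the other NAC_HFD libraries. Ecm1, Dcn, Des, Pdgfrb, Colec11, Col1a1, Col1a2 and Col3a1 were also highest of their group in that library. They stood at 96.9, 87.5, 2.68, 2.64, 19.1, 2.2, 4.69 and 6.46 TPM. Hand2, Lhx2, Bmp5 and Colec10, of the same list, were lowest of their group in that library, at 1.98, 1.27, 4.22 and 8.54 TPM. The other genes of the list were neither highest nor lowest of their group there. Acta2 was high in HFD replicate 3 too, at 11.3 TPM, where Cyp26a1 was lowest of all 12 libraries at 0.64 TPM. Dhrs3 was lowest of its group in NAC_HFD replicate 1. The part of stellate cell content in the Cyp26a1 value was not tested, and these genes were looked up after that value was seen.

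**Figure D4:**
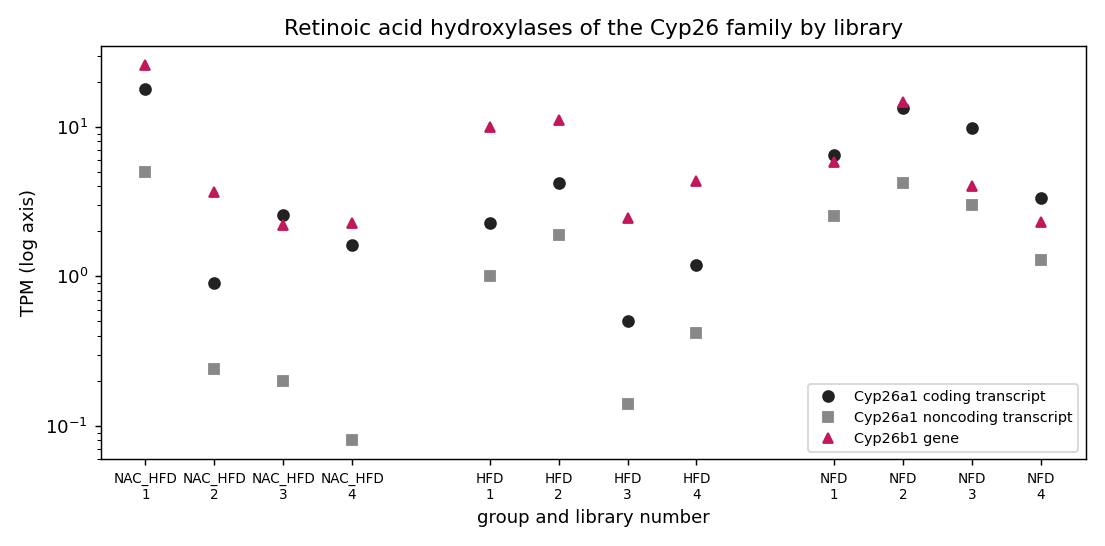
Level of the coding and noncoding transcripts of Cyp26a1 and of the gene Cyp26b1 in each of the 12 libraries, in TPM on a log axis. NAC_HFD replicate 1 is highest for all 3, and the coding Cyp26a1 transcript is at or above 3.36 TPM in all 4 NFD libraries.

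The other retinoid genes were taken as 7 lists of 61 genes, of which 45 were tested. For HFD against NFD 2 of the 45 rose and 0 fell (4.44%, against 2.78% of all tested genes), with a median difference of 0.11. For NAC_HFD against HFD 0 of the 45 passed by limma, 7 had an unadjusted p under 0.05 (against 16.4% of all tested genes), and the median was -0.05. For NAC_HFD against NFD 1 fell and 0 rose (2.22%, against 5.28% of all tested genes), with a median of 0.02.

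Dhrs7, a short-chain dehydrogenase related to Dhrs3, had 14.2, 15.8, 22.8 and 23.1 TPM in NAC_HFD, 25.7, 26.7, 18.02 and 19.98 TPM in HFD, and 12.7, 14.5, 10.97 and 12.5 TPM in NFD livers. No NFD library reached the lowest HFD library, as for 7.78% of tested genes, and Dhrs7 rose by 0.78 (SE 0.16, adjusted p = 0.0244). It was the one gene of 13 tested retinol dehydrogenases that passed; 10 of the 13 had positive differences, as did 5990 of all 11376 tested genes. Cd36, a scavenger receptor that takes up fatty acids and carotenoids, had 24.5, 12.1, 17.9 and 42.2 TPM in NAC_HFD, 77.8, 69.4, 40.2 and 65.9 TPM in HFD, and 15.95, 16.1, 11.1 and 20.99 TPM in NFD livers. No NFD library reached its HFD range, again as for 7.78% of tested genes. The rise of Cd36 was 1.91 (SE 0.33, adjusted p = 0.0161), while its difference for NAC_HFD against HFD was -1.45 (adjusted p = 0.0880). Cd36 is best known for fatty acid uptake, so its place in the carotenoid list is one of its roles.

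Dgat1, an acyltransferase that can also esterify retinol, had 8.47, 5.73, 6.56 and 6.62 TPM in NAC_HFD, 8.20, 6.26, 7.38 and 7.36 TPM in HFD, and 9.82, 9.71, 11.1 and 9.90 TPM in NFD livers. All 8 libraries of the high fat groups lay below all 4 NFD libraries. Among tested genes 4.57% lay lower in every HFD than in every NFD library, and 8.52% in every NAC_HFD than in every NFD library. Dgat1 fell by 0.51 in NAC_HFD against NFD livers (SE 0.11, adjusted p = 0.0212), where 3.52% of tested genes passed as lower, and its difference for HFD against NFD was -0.43 (adjusted p = 0.0574). These calls varied with single libraries: neither Dhrs7 nor Cd36 passed without HFD replicate 1 or HFD replicate 4, at most 1 of the 45 passed without HFD replicate 2 or NFD replicate 1, 3 or 4, and Dgat1 did not pass without NFD replicate 3, NAC_HFD replicate 3 or NAC_HFD replicate 4.

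Partners of the 8 genes that did not pass are given by their values. Ttr, transthyretin, which binds Rbp4 in plasma, averaged 3931 ± 618 TPM in NAC_HFD, 4863 ± 589 TPM in HFD and 3502 ± 299 TPM in NFD livers, with a difference of 0.47 for HFD against NFD (adjusted p = 0.0714). Stra6l, a receptor for Rbp4, had differences of -0.10 for NAC_HFD against HFD and 0.05 for HFD against NFD. For the alcohol dehydrogenases Adh1 and Adh4 the differences for HFD against NFD were 0.33 (adjusted p = 0.171) and 0.28 (0.370). Rdh7, Rdh10 and Rdh11, further retinol dehydrogenases, had 0.06, 0.11 and 0.06 for HFD against NFD, and Aldh8a1, a dehydrogenase for 9-cis-retinal, had 0.08.

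Dgat2 averaged 218 ± 29.5 TPM in NAC_HFD, 213 ± 13.1 TPM in HFD and 164.8 ± 40.3 TPM in NFD livers, with a difference of 0.40 for HFD against NFD (adjusted p = 0.176). Pnpla2, a lipase of lipid droplets, had differences of 0.18 for NAC_HFD against HFD and -0.16 for HFD against NFD. Bco2, which cleaves carotenoids at another bond than Bco1, had 0.39 for HFD against NFD (adjusted p = 0.177), and Scarb1, a receptor that takes up carotenoids, 0.05. Rara, a retinoic acid receptor, averaged 6.51 ± 1.08 TPM in NAC_HFD, 9.46 ± 1.23 TPM in HFD and 8.45 ± 1.67 TPM in NFD livers. Every NAC_HFD library lay below every HFD library, as for 8.66% of tested genes, and the difference was -0.48 (adjusted p = 0.129 by limma). Rxra had 0.22 for HFD against NFD (adjusted p = 0.254) and Rarb -0.37 (adjusted p = 0.287). Pnpla3, Aldh1a2 and Aldh1a3 stayed below the floor, at no more than 0.71, 0.19 and 0.40 TPM. Crabp2, Rbp2, Stra6 and Isx were not found by name among the 19252 genes.

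**Figure D5:**
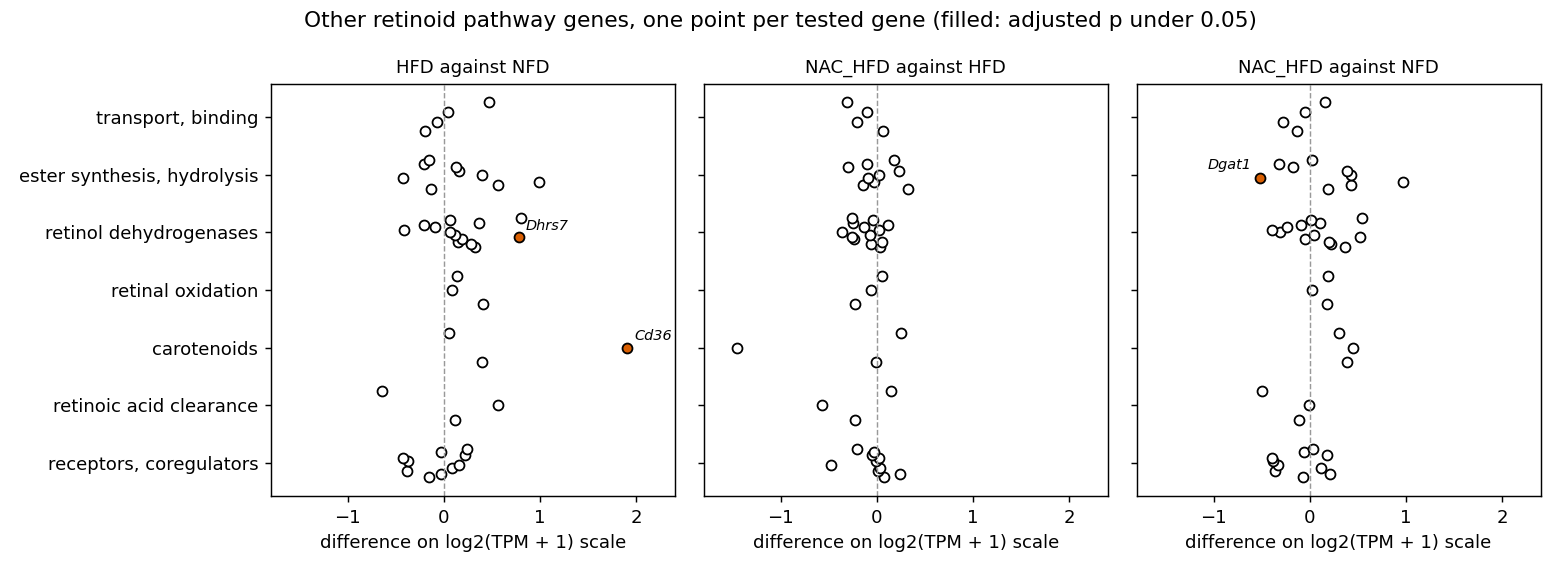
Difference of each of the 45 other tested retinoid genes on the log2(TPM + 1) scale, by role and comparison; filled points passed an adjusted p of 0.05 and are named. The filled points are Dhrs7 and Cd36 for HFD against NFD and Dgat1 for NAC_HFD against NFD.

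Across the 12 libraries, the genes whose log2(TPM + 1) values ran most like those of each of the 8 genes were found by Pearson's r. They were sought among the tested genes, leaving out unnamed, predicted and clone-named genes, as a description. For Aldh1a1 they were Tgoln1 (r = 0.933), Fahd2a (0.930) and Mmd (0.928), and for Aldh1a7 Dusp22 (0.949), Leap2 (0.927) and Pgrmc1 (0.917). For Dhrs3 they were Dpys (0.970), Lgr4 (0.961) and Proz (0.960). Rdh16 ran most like Asah1 (0.939), Abcd3 (0.934) and Galk1 (0.930), and Rbp4 like Slc25a3 (0.944) and Cnn3 (0.921). The closest to Cyp26a1 were Eif2b3 (0.935), Abcf2 (0.882) and Ttpal (0.874). Lrat ran most like Atf3 (0.884), Stx12 (0.882) and Rfx3 (0.853), and Bco1 like Efr3a (0.900), Seh1l (0.8996) and Ext2 (0.898). All these values share the same 12 libraries and their group differences. Among the 8 genes themselves, Lrat and Cyp26a1 had an r of 0.76, and 0.88 after group means were taken out; Aldh1a1 and Rdh16 had 0.72, and 0.76 after that step.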

How the data were processed

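Liver total RNA was sequenced in 12 libraries, grouped by their labels. Per the submitters' processing notes, the authors used fastp, HISAT and RSEM with genome build GRCm38; the sources used here give neither versions nor the step of each tool. The deposited gene and transcript tables hold TPM made by the authors, which keeps no read depth. The transcript tables together have a fixed total per library of about 1000000 TPM, so abundant transcripts lower all others. The gene table used for the tests has no fixed total and summed to 656154 to 713716 TPM per library. The authors' deposited comparison tables hold ratios (fold changes), log2 fold changes and p-values, per the file headers; the sources used here do not give their test.

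Genes with at least 1 TPM in at least 4 of 12 libraries (11376 of 19252) were fitted as log2(TPM + 1) with limma 3.58.1 in R 4.3.3 (3 group means, eBayes with trend and robust). Tests were two-sided, with Benjamini-Hochberg adjustment over all tested genes and a threshold of 0.05; the steps were tested on simulated data. Fold changes of low genes are understated by the pseudocount of 1. Intervals are 95% intervals of limma. No 2 libraries held identical values.

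The 8 genes, the lists and the alternatives were chosen with earlier results of these data known. Named besides the 8 were pathway genes past the threshold, a set panel and up to 3 most alike genes of each; a few genes that this rule names are not reported here. Same-numbered libraries did not deviate together, so no pairing was used. Alternatives were other pseudocounts, floors, scalings, fits and leaving out each library. The lncRNA named in the series title was not analysed here.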

Additional observations from a re-analysis of the deposited data

Results flagged for a closer look

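In 3 of 24 sets of 4 libraries (8 genes in 3 groups), 1 library stood apart from the other 3 by a gap above the 95% critical value of Dixon's test; chance gives this for about 1 set in 20. Aldh1a7 was lowest in NAC_HFD replicate 2 at 44.1 TPM, where the gap was 0.854 of the group's range. Cyp26a1 was highest in NAC_HFD replicate 1 at 22.9 TPM, with a gap of 0.925 of the range. Bco1 was highest in NFD replicate 3 at 5.15 TPM, with a gap of 0.862 of the range.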

How the results depend on the processing

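Depth is unknown, so the counting error of low genes such as Cyp26a1, Lrat and Bco1 cannot be estimated here. Also, 4 libraries a group limit what can be called. Among the 8 genes, the HFD against NFD calls went from 2 to 0 with no floor and to 1 under rescaling within the gene table, quantile normalization or eBayes without trend and robust; Dhrs3 was lost in all 4, with an adjusted p of 0.0762, 0.0706, 0.0501 and 0.0521, and Aldh1a1 also with no floor, at 0.0594. Leaving out 1 library gave 0 to 3 calls for HFD against NFD, 0 to 0 for NAC_HFD against HFD and 1 to 1 for NAC_HFD against NFD. Over all tested genes the calls were 168 with no floor for HFD against NFD, against 316, and 90 to 375 with 1 library left out (90 without HFD replicate 1). For NAC_HFD against HFD they were 24 with a pseudocount of 5 TPM, against 0, and 0 to 64 with 1 library left out (64 without NAC_HFD replicate 1). For NAC_HFD against NFD they were 289 with no floor and 188 on those 2 groups alone, against 601, and 211 to 618 with 1 library left out (211 without NAC_HFD replicate 4). Scaling moved the split: 259 of 419 calls were higher for HFD against NFD under quantile normalization, against 249 of 316, and 371 of 622 for NAC_HFD against NFD under median-of-ratios scaling, against 200 of 601. Of the 45 other retinoid genes, calls for HFD against NFD were 1 with no floor and 4 on 2 groups alone, against 2, and 0 to 4 with 1 library left out. For NAC_HFD against NFD they were 4 under median-of-ratios scaling, 3 under quantile normalization, 2 under eBayes without trend and robust and 0 on 2 groups alone, against 1, and 0 to 3 with 1 library left out; for NAC_HFD against HFD 0 to 0. No floor tests more genes and 2 groups alone use fewer libraries; the cause of the other shifts was not tested.

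For NAC_HFD against HFD, Rbp4 turned to 0.0113 under rescaling and 0.0953 under median-of-ratios scaling, and Bco1 to 0.0546 under median-of-ratios scaling and 0.0855 under quantile normalization, both with no call. With 1 library left out, signs turned within these ranges, again with no call: for HFD against NFD Bco1 -0.0576 to 0.140 and Lrat -0.288 to 0.0107; for NAC_HFD against HFD Rbp4 -0.0491 to 0.0258, Bco1 -0.11 to 0.0752, Lrat -0.00585 to 0.335 and Cyp26a1 -0.27 to 0.89; for NAC_HFD against NFD Bco1 -0.0677 to 0.11, Aldh1a7 -0.11 to 0.20, Lrat -0.12 to 0.18 and Rdh16 -0.42 to 0.0252.

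The replicate numbers did not pair the libraries: 2 of 12 same-numbered pairs had deviations correlated above 0.1, and 4 of 24 checks found a library most like its own number. With the replicate block the 8 genes had 1 call for HFD against NFD, Aldh1a1, while Dhrs3 did not pass (adjusted p = 0.0949 by limma). The other retinoid genes had 1 call in that comparison and all tested genes 225. For NAC_HFD against HFD all tested genes had 3, and for NAC_HFD against NFD 406.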
